A study of Mus musculus with 16 samples.

Results

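The genes described here are 10 members of the epithelial growth factor niche of the intestinal crypt, out of 46882 genes in the deposited count tables. They were taken by their gene symbols: Reg4, Kit and Cd44, which mark deep crypt secretory cells, the ligands Egf, Areg, Ereg, Btc, Hbegf and Tgfa, and their receptor Egfr. All 10 had a row in the tables and all 10 passed the filter on low counts. Bulk RNA was measured in 16 libraries of RedMUC298trTg mice aged 6 to 8 weeks, a strain whose goblet cells carry an mCherry signal, with 4 libraries in each of 4 groups. Per the labels, live cells were separated by that signal, with a C57Bl6 mouse setting the negative gate. DC goblet cells are the mCherry-positive cells of the distal colon, and DC other cells are its mCherry-negative cells, which the labels call Colonocytes. Si8 goblet cells and Si8 other cells are the same sorts from section 8 of the small intestine, where the labels call the other cells Enterocytes. Every group carries the transgene, and no other allele or treatment is given. The mCherry-negative groups hold every cell without the signal. Goblet lysates went over MinElute columns and the others over Mini columns, so column and sort cannot be told apart. Nothing in the labels ties a library to an animal, although sample numbers in the titles run in adjacent pairs of 1 goblet and 1 other library, so the p-values cover the spread from sample to sample, and that spread may be technical.

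The epidermal growth factor (EGF) family signals through receptor tyrosine kinases of the ErbB family. Its ligands are made as membrane-bound precursors and are released by proteases, and they drive the proliferation of intestinal stem and progenitor cells. In the small intestine, Paneth cells at the crypt base supply stem cells with EGF, Notch ligands and Wnt3. The mouse colon lacks Paneth cells, and deep crypt secretory cells marked by Kit, Reg4 and CD44 sit between its stem cells in their place. In bulk samples, fewer cells of a type and less RNA per cell cannot be told apart.

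The promoters of the 3 genes with the highest goblet levels relative to other cells, Reg4, Kit and Egf, are shown first, with that of Areg, which moved the other way. Each runs from 250 bases before to 50 bases after the RefSeq gene start (GRCm38.p6), 5′ to 3′ on the strand of the gene, in lower case with motif matches in capitals.

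Reg4 promoter, chr3:98221906-98222205, + strand: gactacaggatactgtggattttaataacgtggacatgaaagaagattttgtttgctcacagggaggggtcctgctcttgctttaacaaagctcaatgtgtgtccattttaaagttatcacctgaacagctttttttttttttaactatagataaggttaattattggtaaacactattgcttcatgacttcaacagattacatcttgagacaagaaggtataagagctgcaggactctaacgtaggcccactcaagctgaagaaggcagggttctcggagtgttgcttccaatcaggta
Kit promoter, chr5:75574737-75575036, + strand: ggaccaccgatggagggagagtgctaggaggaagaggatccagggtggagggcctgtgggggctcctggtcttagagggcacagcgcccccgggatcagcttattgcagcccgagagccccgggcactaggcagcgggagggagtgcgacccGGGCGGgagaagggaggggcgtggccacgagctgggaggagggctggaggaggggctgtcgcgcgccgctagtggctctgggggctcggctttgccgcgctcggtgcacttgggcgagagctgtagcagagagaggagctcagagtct
Egf promoter, chr3:129755273-129755572, - strand: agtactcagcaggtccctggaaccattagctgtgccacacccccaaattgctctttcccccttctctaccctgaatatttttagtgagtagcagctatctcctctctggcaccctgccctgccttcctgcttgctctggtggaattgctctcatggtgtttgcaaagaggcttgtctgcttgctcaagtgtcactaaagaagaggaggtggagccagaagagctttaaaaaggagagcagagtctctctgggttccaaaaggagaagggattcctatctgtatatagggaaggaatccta
Areg promoter, chr5:91139349-91139648, + strand: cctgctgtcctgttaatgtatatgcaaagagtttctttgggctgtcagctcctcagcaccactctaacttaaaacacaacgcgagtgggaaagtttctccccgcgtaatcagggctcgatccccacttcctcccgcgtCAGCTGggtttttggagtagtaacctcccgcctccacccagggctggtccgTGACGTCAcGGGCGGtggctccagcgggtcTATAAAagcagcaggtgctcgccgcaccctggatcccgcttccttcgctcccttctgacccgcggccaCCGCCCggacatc

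7 motifs were searched on both strands: a TATA box (TATAAA), a cyclic AMP response element (TGACGTCA), an AP-1 site (TGANTCA), 2 E-boxes (CAGCTG and CAGATG), a TCF site (CTTTGAT) and a GC box (GGGCGG). No matched letters overlap in these windows. The Areg window holds 5 matches. Its TATA box starts at position -31 from the gene start, its cyclic AMP response element at -61, its CAGCTG E-box at -112 and its GC boxes at -52 and +38. The cyclic AMP response element is the least common of these, found in 1.79% of 32851 promoter windows of the same length, against 13.6% for the TATA box, 16.3% for CAGCTG and 35.7% for the GC box. The Kit window holds 1 GC box, at -98. The Reg4 and Egf windows hold none of these letters. GC content was 39.3% in the Reg4 window, 49.0% in Egf, 59.3% in Areg and 69.0% in Kit. No AP-1, CAGATG or TCF letters (7.81%, 17.2% and 3.73% of all windows) were found in any of the 8 member windows searched. Those of Ereg and Hbegf were not searched.

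Reg4 encodes a secreted C-type lectin-like protein (chr3:98222156-98236748, GRCm38, plus strand). It reached 1811, 1193, 1298 and 1132 CPM (counts per M counts of a library, on totals scaled by TMM) in the 4 DC goblet libraries, against 10.5, 23.5, 9.45 and 12.3 CPM in DC other cells. Every DC goblet library stood far above every DC other library. Differences were tested with edgeR's quasi-likelihood test, Benjamini-Hochberg adjusted over all 16001 genes tested, and were called at an adjusted p under 0.05. The log2 fold change was 6.61 ± 0.38 (SE, adjusted p = 9.7e-10). In Si8 goblet cells Reg4 had 131, 65.3, 86.9 and 147 CPM, against 10.5, 13.3, 18.4 and 18.6 CPM in Si8 other cells, again with no overlap (log2 fold change 2.82 ± 0.32, adjusted p = 2.1e-06). The order of the levels was DC goblet, Si8 goblet, then both groups of other cells, whose ranges overlapped.

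Kit encodes the receptor tyrosine kinase for stem cell factor (chr5:75574916-75656722, plus strand). It was among the most even of the 10 genes in DC goblet cells, with 230.2, 224, 242 and 227 CPM, against 6.94, 10.7, 7.64 and 8.10 CPM in DC other cells. The coefficient of variation over the DC goblet libraries was 3.47% for Kit and 22.8% for Reg4. The log2 fold change of Kit in DC was 4.79 ± 0.13 (adjusted p = 5.8e-16). Si8 goblet cells had 82.2, 69.5, 62.0 and 76.1 CPM of Kit, against 12.1, 8.77, 10.6 and 10.8 CPM in Si8 other cells (log2 fold change 2.78 ± 0.12, adjusted p = 2.6e-13). No library of either goblet group overlapped with its region's other cells.

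Cd44 encodes a hyaluronan receptor of the crypt base that is a known Wnt target (chr2:102811141-102901665, minus strand). Unlike Reg4 and Kit, it did not separate goblet cells in DC. Its levels were 26.4, 32.0, 28.4 and 31.5 CPM in DC goblet cells, against 29.2, 31.8, 37.9 and 36.5 CPM in DC other cells (log2 fold change -0.19 ± 0.11, adjusted p = 0.157). In Si8 it had 38.1, 33.0, 27.7 and 36.7 CPM in goblet cells, against 31.0, 27.9, 23.7 and 26.0 CPM in other cells. The ranges overlapped, and the log2 fold change of 0.32 ± 0.11 passed the test (adjusted p = 0.0166). That call was lost with DESeq2 (adjusted p = 0.0522), without Si8 other replicate 3 (adjusted p = 0.0642) and without Si8 goblet replicate 1 (adjusted p = 0.0641). All 3 neighbours in the order of the 4 group levels of Cd44 overlapped.

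**Figure D1:**
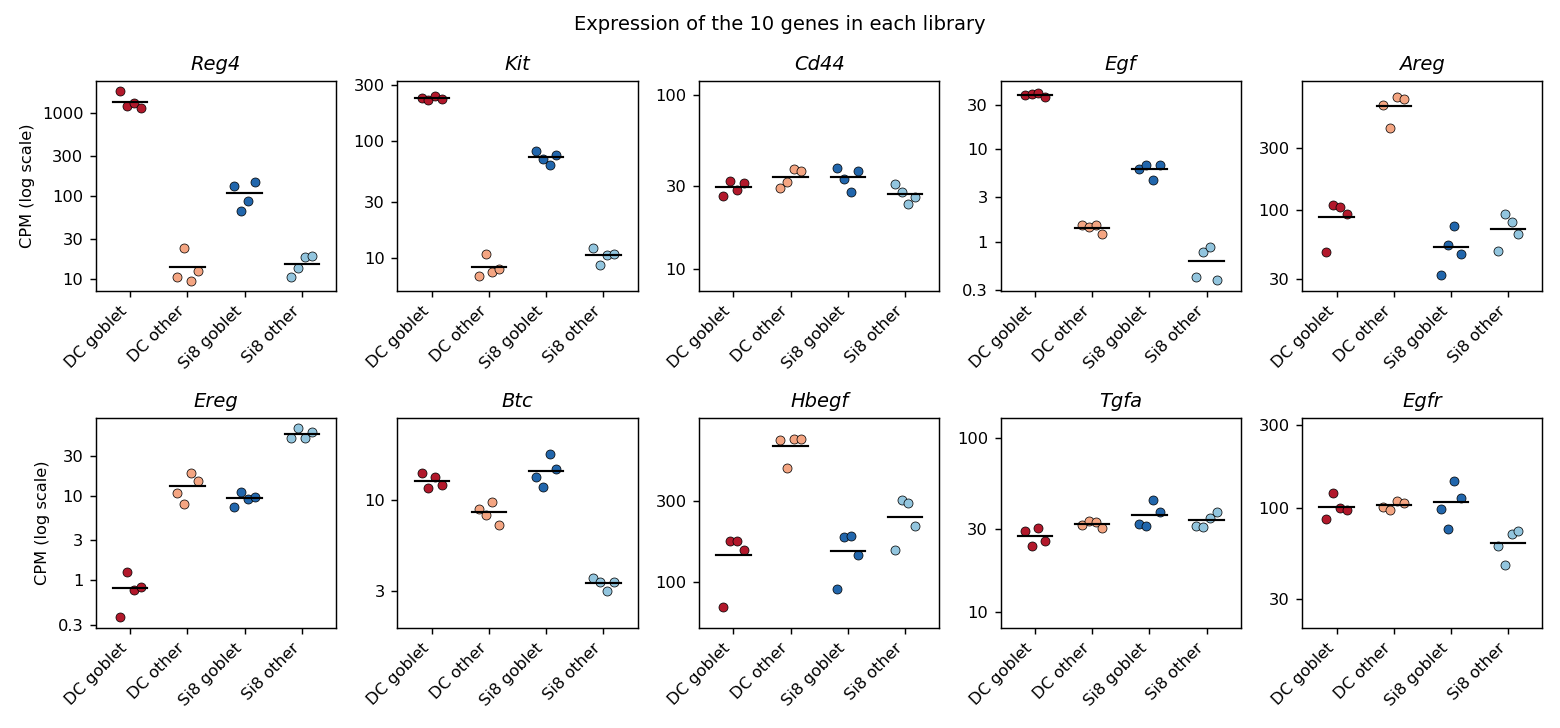
Levels of the 10 genes in each library: CPM on a log scale against the 4 groups, with 1 point per library and a line at the group mean. Reg4, Kit and Egf stand highest in DC goblet cells, Areg and Hbegf in DC other cells and Ereg in Si8 other cells, while Cd44 and Tgfa differ little.

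Egf itself, the founding ligand, followed Kit and Reg4 (chr3:129677565-129755316, minus strand). It had 37.9, 39.2, 40.4 and 36.1 CPM in DC goblet cells, against 1.52, 1.43, 1.49 and 1.21 CPM in DC other cells. In Si8 it had 6.04, 6.66, 4.60 and 6.70 CPM in goblet cells, against 0.418, 0.779, 0.877 and 0.389 CPM in other cells. None of the 4 groups overlapped with another in Egf, from DC goblet through Si8 goblet and DC other to Si8 other cells. The log2 fold change of goblet over other cells was 4.76 ± 0.18 in DC (adjusted p = 3.2e-14) and 3.25 ± 0.19 in Si8 (adjusted p = 1.6e-11). The lowest level rested on 12 to 31 counts per library. Exons of Egf overlap those of the antisense genes Gm42697 and 6330410L21Rik, which had at most 12 counts over any group. Whether the counting used strand is not given in the sources used here.

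Btc, which encodes betacellulin, a ligand of EGFR and ErbB4 (chr5:91357261-91402994, minus strand), was the other ligand that was higher in goblet cells of both regions. DC goblet cells had 14.2, 11.6, 13.5 and 12.2 CPM, against 8.88, 8.14, 9.65 and 7.19 CPM in DC other cells (log2 fold change 0.61 ± 0.13, adjusted p = 6.5e-04). Si8 goblet cells had 13.4, 11.8, 18.2 and 15.0 CPM, against 3.55, 3.37, 2.99 and 3.37 CPM in Si8 other cells (log2 fold change 2.13 ± 0.13, adjusted p = 6.4e-11). Neither pair of groups overlapped. The goblet levels of the regions overlapped, and the other cells of DC lay above those of Si8.

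Areg encodes amphiregulin, a ligand induced in injured epithelium (chr5:91139599-91148432, plus strand), and it ran opposite to Egf in DC. It had 48.4, 110.2, 106 and 93.5 CPM in DC goblet cells, against 636, 428, 728 and 711 CPM in DC other cells. The highest goblet library lay below the lowest other library, and the log2 fold change was -2.81 ± 0.31 (adjusted p = 2.2e-06). In Si8 the ranges overlapped, with 32.2, 54.0, 75.4 and 46.5 CPM in goblet cells and 48.6, 93.8, 80.9 and 66.2 CPM in other cells. The Si8 log2 fold change of -0.48 ± 0.30 did not pass (adjusted p = 0.170). With adjacent sample numbers as a block, chosen after the data were seen, it passed at -0.50 ± 0.10 (adjusted p = 5.3e-04), and Areg was lower in the goblet library in 4 of 4 Si8 pairs.

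Hbegf encodes heparin-binding EGF-like growth factor, an early induced ligand. It had 71.5, 174, 175 and 154 CPM in DC goblet cells, against 689, 475, 704 and 699 CPM in DC other cells, with no overlap (log2 fold change -2.16 ± 0.31, adjusted p = 2.8e-05). In Si8 it had 91.3, 186, 189 and 145 CPM in goblet cells, against 156, 307, 293 and 215 CPM in other cells. Those ranges overlapped, and the log2 fold change was -0.67 ± 0.30 (adjusted p = 0.0609). It passed without Si8 other replicate 1 (-0.83, adjusted p = 0.0241), with RLE factors (adjusted p = 0.0456), with limma-voom (adjusted p = 0.0403) and with only the Si8 groups in the fit (adjusted p = 0.0461). With adjacent sample numbers as a block it passed at -0.68 ± 0.09 (adjusted p = 5.4e-06), and Hbegf was lower in the goblet library in 4 of 4 Si8 pairs.

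Ereg encodes epiregulin, a ligand of EGFR and ErbB4 that is expressed by stromal cells in the gut (chr5:91074622-91093646, plus strand). It was lower in goblet cells of both regions. DC goblet cells had 0.366, 1.25, 0.766 and 0.833 CPM, from 7 to 18 counts per library, against 10.7, 8.08, 19.0 and 15.0 CPM in DC other cells (log2 fold change -4.08 ± 0.31, adjusted p = 4.6e-09). Si8 goblet cells had 7.38, 11.0, 9.17 and 9.85 CPM, against 48.4, 63.4, 48.8 and 58.0 CPM in Si8 other cells (log2 fold change -2.55 ± 0.21, adjusted p = 1.2e-08). Si8 other cells were the highest of the 4 groups, and DC other and Si8 goblet cells overlapped in the middle of the order.

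Tgfa encodes transforming growth factor alpha, an EGFR ligand made by the epithelium itself (chr6:86195223-86275719, plus strand), and it was nearly level. It had 29.2, 24.0, 30.2 and 25.5 CPM in DC goblet cells, against 31.4, 33.0, 32.8 and 30.4 CPM in DC other cells. The goblet range lay just below the other range, with a log2 fold change of -0.23 ± 0.11 that did not pass (adjusted p = 0.0810). It passed at adjusted p-values of 0.0135 to 0.0465 with RLE factors, a filter at a mean of 1 CPM, mitochondrially encoded genes left out, only the DC groups in the fit, or adjacent sample numbers as a block. Si8 goblet cells had 32.0, 31.3, 43.9 and 37.5 CPM of Tgfa, against 31.1, 30.9, 34.6 and 37.5 CPM in Si8 other cells (log2 fold change 0.11 ± 0.10, adjusted p = 0.365).

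Egfr, the common receptor (chr11:16752203-16918158, plus strand), was level between the sorts in DC and higher in goblet cells in Si8. DC goblet cells had 86.6, 122, 101 and 97.6 CPM, against 101, 97.3, 110.1 and 107 CPM in DC other cells (log2 fold change -0.03 ± 0.16, adjusted p = 0.900). Si8 goblet cells had 99.4, 76.2, 144 and 115 CPM, against 61.0, 47.4, 71.2 and 73.7 CPM in Si8 other cells. The Si8 goblet range lay just above the other range (log2 fold change 0.78 ± 0.16, adjusted p = 5.4e-04). Egfr in Si8 other cells was the lowest of the 4 groups, and the other 3 groups overlapped.

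Counted over the set, 4 of the 10 genes were called higher and 3 lower in DC goblet cells, against 55.7% of all 16001 genes called in either direction, 27.8% higher and 27.9% lower. In Si8, 6 of 10 were higher and 1 was lower, against 64.9% of all genes called, 33.1% higher and 31.8% lower. The count called in either direction, 7 of 10 in each region, is near these backgrounds. The split by direction in Si8 leans to higher, and that lean was not tested. The 4 libraries of the goblet group lay wholly apart from those of the other group for 8 of the 10 genes in DC and for 6 in Si8, against 53.8% and 53.9% of all genes. The median log2 fold change of the 10 genes was -0.11 in DC and 0.55 in Si8, against 0.03 in each region over all genes.

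**Figure D2:**
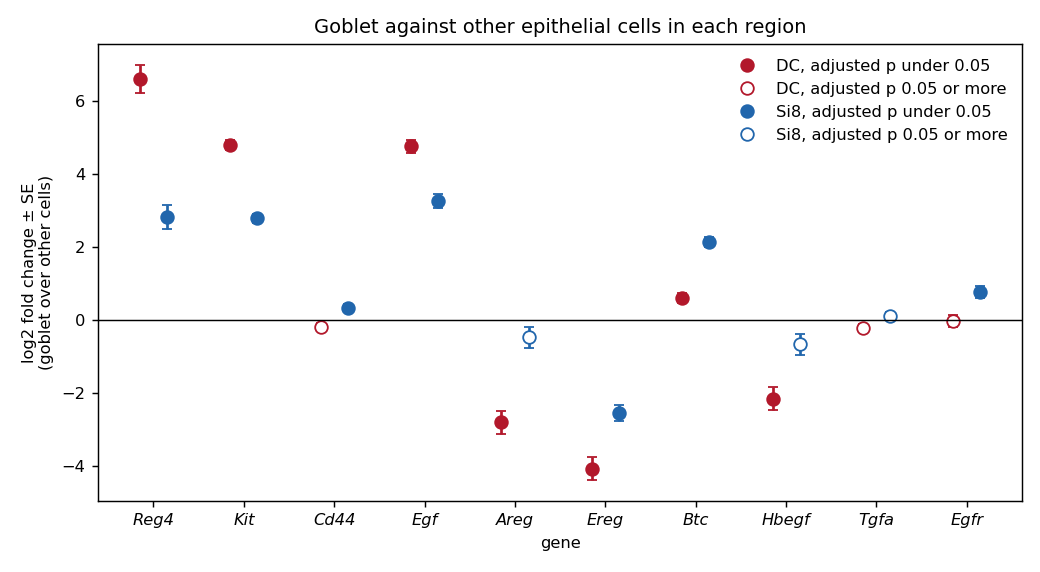
Log2 fold change of goblet over other cells for the 10 genes, with SE bars, in DC (red) and Si8 (blue), filled where the adjusted p was under 0.05. Reg4, Kit and Egf lie above 2.5 in both regions, Ereg lies below -2.5 in both, and Areg and Hbegf lie far below 0 in DC and nearer to it in Si8.

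Ligand levels were compared with each other as CPM per kb of exon, since CPM grows with transcript length. The 7 ligands of EGFR, with Epgn added, summed to 114 ± 33.2 CPM per kb in DC goblet cells, against 659 ± 137 CPM per kb in DC other cells (SD, n = 4 each). In Si8 they summed to 86.0 ± 24.7 in goblet cells, against 129 ± 31.5 in other cells. Areg made up most of the sum in DC, with 64.0% ± 2.43 in goblet cells and 78.0% ± 1.26 in other cells. In Si8 its share was 49.2% ± 3.30 in goblet cells, against 46.0% ± 1.30 in other cells. Hbegf held the next share in all 4 groups, from 20.3% ± 1.08 in DC other cells to 38.5% ± 2.56 in Si8 other cells. Egf held 3.24% ± 1.24 of the sum in DC goblet cells and 0.0198% ± 0.00558 in DC other cells. Its share was 0.672% ± 0.252 in Si8 goblet cells and 0.0416% ± 0.0101 in Si8 other cells. So even where Egf was highest, at 3.40 ± 0.162 CPM per kb, Areg in the same libraries was at 73.6 ± 23.3. The share of Ereg was 10.6% ± 2.22 in Si8 other cells and at most 2.74% ± 0.557 in the other 3 groups.

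**Figure D3:**
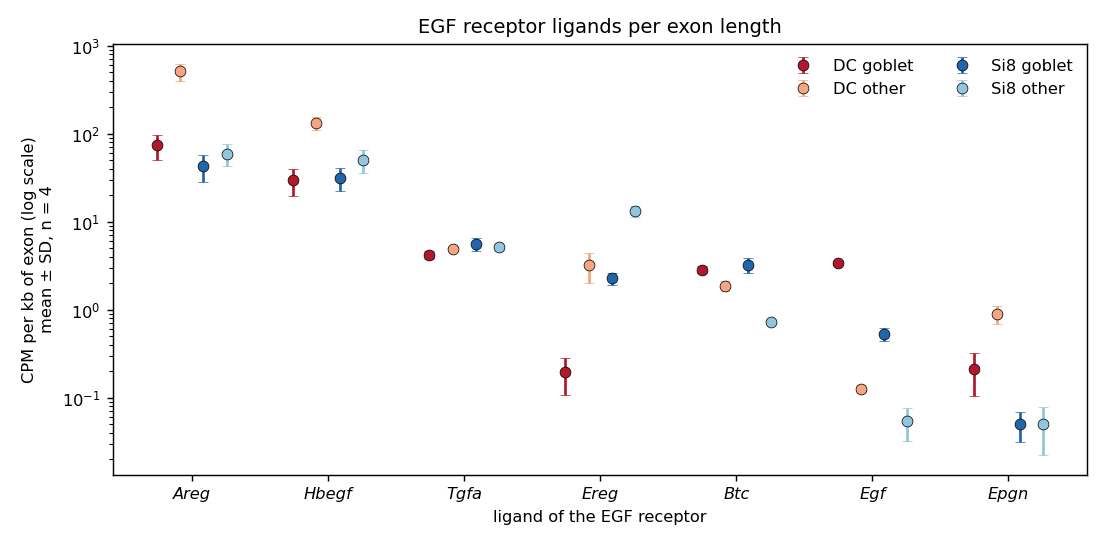
Mean CPM per kb of exon (log scale) of the 7 EGFR ligands in the 4 groups, with SD bars over 4 libraries. Areg and Hbegf are the highest ligands in every group, and Egf in DC goblet cells reaches 3.40, close to the level of Tgfa there (4.19).

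Areg, Ereg and Btc are neighbours. With Epgn, which encodes epigen, they span 375.5 kb of chromosome 5, and these 4 are the only protein-coding genes in that span of the GENCODE M21 annotation. They did not move as a block. In DC goblet cells Btc was higher, while Areg and Ereg were both lower. Ereg ends 46.0 kb before Areg starts. Epgn, at 0.384 ± 0.196 CPM in DC goblet cells against 1.63 ± 0.382 CPM in DC other cells, was also lower (log2 fold change -2.15 ± 0.33, adjusted p = 1.5e-05), and in Si8 it had 0.0901 ± 0.0337 CPM in goblet cells and 0.0906 ± 0.0505 CPM in other cells.

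The library lowest in early response genes was also the lowest of its group in Areg, Hbegf and Ereg. A list of 15 such genes, among them Fos, Jun, Atf3 and Hspa1a, which cell dissociation is known to induce, summed to 7405, 12518, 12608 and 11391 CPM in DC goblet cells, against 15883, 11663, 16623 and 16031 CPM in DC other cells. In Si8 it summed to 4579, 7402, 7936 and 6661 CPM in goblet cells, against 3985, 5486, 5664 and 4930.0 CPM in other cells. In all 4 groups the library lowest in this sum was also lowest in Areg, in Hbegf and in Ereg, and in none of the 4 groups was it lowest in Tgfa, Btc or Egf. The whole order of the 4 libraries was that of the sum in 3 of 4 groups for Hbegf, in 2 for Areg and in 1 for Ereg. In DC the mean sum was 10980 CPM in goblet cells, against 15050 CPM in other cells, the direction of these 3 ligands, with 2 of the 15 genes called higher and 2 lower (median -0.31). In Si8 the mean sum was 6644 CPM in goblet cells, against 5016 CPM in other cells, the opposite direction, with 8 genes called higher and none lower (median 0.59). The part of these genes in the ligand differences was not tested.

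**Figure D4:**
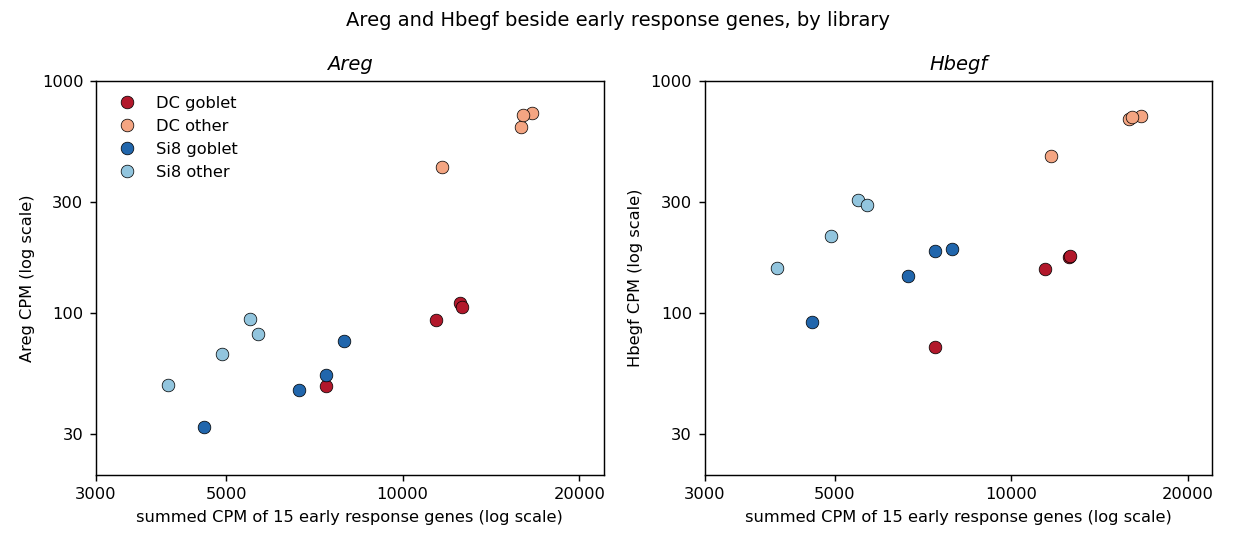
Areg (left) and Hbegf (right) CPM against the summed CPM of 15 early response genes, both on log scales, with 1 point per library coloured by group. Within each group the library with the smallest sum has the lowest Areg and Hbegf, and the 4 DC other libraries lie well above the 4 DC goblet libraries in both ligands.

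Other cell types moved with the sorts too. Goblet markers summed to 38562 to 43629 CPM in DC goblet cells, against 446 to 588 CPM in DC other cells, and to 125831 to 286860 CPM in Si8 goblet cells, against 311 to 790 CPM in Si8 other cells, as the labels say. 9 Paneth markers, of which 5 defensin genes were at 0 in every DC library, summed to 13922 to 38679 CPM in Si8 goblet cells, against 815 to 2189 CPM in Si8 other cells. In Si8 goblet replicates 1 to 4, in order, that sum was 13922, 26807, 19853 and 38679 CPM. Beside it, Reg4 had 131, 65.3, 86.9 and 147 CPM, and Kit had 82.2, 69.5, 62.0 and 76.1 CPM. Egf had 6.04, 6.66, 4.60 and 6.70 CPM in the same libraries, and Btc had 13.4, 11.8, 18.2 and 15.0 CPM. 16 enteroendocrine markers, a lineage that also expresses Reg4, summed to 74.2 to 99.2 CPM in DC goblet cells, against 436 to 575 CPM in DC other cells, and to 188 to 277 CPM in Si8 goblet cells, against 412 to 617 CPM in Si8 other cells. Of the 15 tested, none was higher and 11 were lower in DC goblet cells, and 1 was higher and 13 were lower in Si8 goblet cells. Tac1, which encodes substance P, was at 49.0 CPM in Si8 goblet cells, against 13.0 CPM in Si8 other cells. Mast cells also express Kit, and 9 mast cell markers summed to 6.56 to 8.75 CPM in DC goblet cells, against 0.130 to 0.535 CPM in DC other cells, and to 0.615 to 0.926 CPM in Si8 goblet cells, against 2.36 to 11.2 CPM in Si8 other cells. In DC goblet cells Cma1 made up 6.99 CPM of the sum, Cpa3 had 0.0231 CPM, and Fcer1a and Mcpt4 were at 0. Cpa3 was at 0.0206 CPM in Si8 goblet cells, against 3.25 CPM in Si8 other cells. 9 stromal markers, none at 0 in any group, summed to 203 to 225 CPM in DC goblet cells, against 364 to 405 CPM in DC other cells, and to 21.6 to 36.1 CPM in Si8 goblet cells, against 27.2 to 30.9 CPM in Si8 other cells. Most of that sum was Ano1 in DC, at 208 CPM in goblet cells and 372 CPM in other cells. All 4 tested were lower in DC goblet cells, and 1 was higher and 2 were lower in Si8 goblet cells. Vim, a marker of mesenchymal and immune cells, was at 1.43 CPM in DC goblet cells, against 5.85 CPM in DC other cells, and at 2.98 CPM in Si8 goblet cells, against 19.9 CPM in Si8 other cells. The collagen gene Col3a1 was at 0.0262 CPM in DC goblet cells, against 2.68 CPM in DC other cells.

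Of 11 stem cell markers, of which Olfm4 was at 0 in DC other cells, 3 were higher and 1 lower in DC goblet cells, and 9 were higher and 1 lower in Si8 goblet cells. They summed to 365 to 413 CPM in DC goblet cells, against 325 to 356 CPM in DC other cells, and to 941 to 1474 CPM in Si8 goblet cells, against 826 to 911 CPM in Si8 other cells. Of 10 proliferation markers, 1 was higher and none lower in DC goblet cells, and 10 were higher in Si8 goblet cells, where they summed to 1235 to 1676 CPM, against 782 to 1176 CPM in Si8 other cells. 11 surface and villus tip markers, genes of mature absorptive cells, summed to 457 to 616 CPM in DC goblet cells, against 7596 to 9206 CPM in DC other cells, and to 1778 to 3572 CPM in Si8 goblet cells, against 7182 to 13722 CPM in Si8 other cells. The lymphocyte marker sum was 14.0 to 24.1 CPM in Si8 goblet cells, against 244 to 375 CPM in Si8 other cells. 9 myeloid and B lineage markers summed to 36.9 to 83.1 CPM in Si8 goblet cells, against 70.9 to 138 CPM in Si8 other cells. In DC they summed to 4.60 to 6.76 CPM in goblet cells, against 6.18 to 9.39 CPM in other cells. Of 7 tested, 1 was higher and 4 lower in DC goblet cells, and none higher and 3 lower in Si8 goblet cells. The part of these cells in the results for any of the members, Egf and Btc included, was not tested.

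Across the regions, goblet cells of DC had more Reg4, Kit, Egf and Areg and less Ereg and Tgfa than those of Si8, which makes 4 genes higher and 2 lower of 10, against 62.1% of all genes called, 30.6% higher and 31.5% lower. The libraries of the regions lay wholly apart for 5 of the 10 genes, against 57.2% of all genes. Log2 fold changes of DC over Si8 goblet cells were 3.66 ± 0.33 for Reg4 (adjusted p = 1.4e-07), 1.67 ± 0.11 for Kit (1.0e-10), 2.67 ± 0.14 for Egf (3.9e-12), -3.58 ± 0.31 for Ereg (2.2e-08) and -0.41 ± 0.11 for Tgfa (0.0026). Areg was higher by 0.78 ± 0.30 (adjusted p = 0.0336). That Areg call was lost without DC goblet replicate 2, 3 or 4, without Si8 goblet replicate 1 or 4, with no filter on low counts and with only the goblet groups in the fit, at adjusted p-values of 0.0665 to 0.130. Cd44, Btc, Hbegf and Egfr did not pass (log2 fold changes from -0.20 to -0.09). Cd44 passed without Si8 goblet replicate 3 (-0.28, adjusted p = 0.0319) and with no filter on low counts (-0.26, adjusted p = 0.0440).

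In the other cells, 6 of 10 genes were higher in DC than in Si8 and 2 were lower, against 66.9% of all genes called, 33.3% higher and 33.6% lower. The libraries lay wholly apart for 6 of the 10 genes, against 59.6% of all genes. Areg led the difference at a log2 fold change of 3.11 ± 0.32 (adjusted p = 5.1e-07), followed by Hbegf (1.40 ± 0.30, adjusted p = 8.0e-04), Btc (1.35 ± 0.14, adjusted p = 5.9e-08) and Egf (1.17 ± 0.24, adjusted p = 2.5e-04). Egfr was higher by 0.71 ± 0.17 (adjusted p = 0.0010). Ereg was lower by a log2 fold change of -2.05 ± 0.21 (adjusted p = 1.4e-07). Cd44 (0.32 ± 0.11, adjusted p = 0.0185) lost its call without DC other replicate 3 or 4 or Si8 other replicate 3 (adjusted p from 0.0539 to 0.0614). Kit (-0.34 ± 0.13, adjusted p = 0.0241) lost its call without DC other replicate 1, 3 or 4 or Si8 other replicate 1 or 4, with upper-quartile factors, with limma-voom and with only the other-cell groups in the fit (adjusted p from 0.0508 to 0.0994). Reg4 and Tgfa did not pass. The early response sum was also higher in DC other than in Si8 other cells, at 11663 to 16623 against 3985 to 5664 CPM, and its part in the Areg and Hbegf difference was not tested. The libraries of the regions were also deposited as separate tables, and mitochondrially encoded genes had 0 counts in DC and 3.19 to 8.36% of the counts in Si8. Gm13340 ran the other way, at 0.884% of the counts in DC goblet and 1.23% in DC other cells. In Si8 it had 8.7e-05% and 1.0e-04%, and Gm29216 and Gm28437 were likewise far higher in DC. Region and deposited table cannot be told apart, in goblet cells or in other cells. Total counts ranged from 11.9 to 18.5 M in DC goblet, 14.9 to 17.7 M in DC other, 37.4 to 40.5 M in Si8 goblet and 30.8 to 41.1 M in Si8 other libraries.

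The goblet effect itself differed between the regions for 9 of the 10 genes, against 32.1% of all genes (15.6% higher and 16.5% lower). The difference, DC minus Si8, was positive for the 3 genes with the largest goblet effects: 3.79 ± 0.45 log2 units for Reg4 (adjusted p = 1.1e-05), 2.01 ± 0.17 for Kit (1.9e-08) and 1.50 ± 0.28 for Egf (3.3e-04). It was negative for Areg (-2.33 ± 0.42, adjusted p = 6.0e-04), Ereg (-1.53 ± 0.40, 0.0064), Btc (-1.53 ± 0.19, 3.4e-06), Hbegf (-1.49 ± 0.42, 0.0141), Egfr (-0.81 ± 0.23, 0.0131) and Cd44 (-0.52 ± 0.16, 0.0177). Tgfa did not pass (-0.34 ± 0.15, 0.0951). These contrasts share their libraries with the comparisons above and are not further evidence for them. The members were also chosen with earlier results of these data known, so their share beside all genes is description only.

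The genes most like Reg4, Kit and Egf were sought over all 16 libraries among 11350 genes, by the root mean square difference of the centred log2(CPM + 0.5) values. For Kit they were Rhbdl3, which encodes a rhomboid-like protein (0.342), Ffar2, a receptor for short-chain fatty acids (0.353), and Copz2, a coatomer subunit (0.381). Ffar2 had 73.3 CPM in DC goblet and 2.21 CPM in DC other cells, and 22.1 CPM in Si8 goblet and 1.65 CPM in Si8 other cells. For Egf they were Slc9a3r2, a scaffold of membrane transporters (0.308), Insrr, the insulin receptor-related receptor (0.481), and Arhgap24 (0.515). For Reg4 they were Gm9994 (0.418), the sialyltransferase gene St6gal1 (0.620) and Kcnma1, which encodes a potassium channel (0.718). St6gal1 had 452 CPM in DC goblet and 2.43 CPM in DC other cells, and 12.6 CPM in Si8 goblet and 2.74 CPM in Si8 other cells. Between Kit and Egf the same measure was 0.590. Some of these genes lay below the added 0.5 in DC other cells, where it shrinks log2 differences. Insrr had 13.5 CPM in DC goblet and 0.0623 CPM in DC other cells, and Gm9994 had 43.7 and 0.163 CPM. Rhbdl3 had 11.3 and 0.197 CPM, and Copz2 had 22.4 and 0.364 CPM. Their likeness to the members therefore rests in part on that constant.

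The lists of related genes that follow are set beside 55.7% of all genes called in DC and 64.9% in Si8. Among 11 tested other deep crypt secretory and niche genes, of 12 listed, 6 were higher and 4 lower in DC goblet cells, and 9 were higher and none lower in Si8 goblet cells (median log2 fold changes 2.06 and 1.93). Spink4, a secreted protease inhibitor, rose in both regions (7.91 ± 0.35 and 6.49 ± 0.32), as did the mucin chaperone Agr2 (4.31 ± 0.30 and 6.11 ± 0.33). Agr2 is also counted in the goblet marker sum given above, so its rise belongs to the sorted cell type. Mptx1, a pentraxin, had 4216 ± 1326 CPM in DC goblet cells, against 15.0 ± 6.87 CPM in DC other cells (8.14 ± 0.36). Wnt3 had 14.1 ± 2.29 CPM in Si8 goblet cells, against 1.80 ± 0.385 CPM in Si8 other cells (2.97 ± 0.19), beside the Paneth marker sums given above. The Notch ligands Dll1 and Dll4 are added here after their values were seen. Every gene of this list given with DC values is a higher one, and none of the 4 lower in DC goblet cells is named. Dll1 was higher in goblet cells of DC (2.87 ± 0.12) and Si8 (1.93 ± 0.11), whereas Dll4 had 45.5 CPM in DC goblet cells, against 3.10 CPM in DC other cells, and 39.2 CPM in Si8 goblet cells, against 42.5 CPM in Si8 other cells, where it did not pass (-0.12 ± 0.12, adjusted p = 0.425).

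Of 5 tested ErbB receptors and co-receptors, of 6 listed, 2 were higher and 3 lower in DC goblet cells, and 1 was higher and 4 were lower in Si8 goblet cells (medians -0.82 and -0.68). Erbb2, the partner receptor that binds no known ligand, had 86.9 ± 5.13 CPM in DC goblet cells, against 249 ± 4.19 CPM in DC other cells, and 147 ± 16.5 CPM in Si8 goblet cells, against 299.8 ± 62.7 CPM in Si8 other cells. Erbb3, a neuregulin receptor, fell in goblet cells of DC (-1.10 ± 0.14) and of Si8 (-0.95 ± 0.13). Lrig1, a negative regulator of ErbB receptors that marks stem cells, rose in goblet cells of DC (0.61 ± 0.11) and Si8 (0.83 ± 0.11), and Lrig2 fell in both (-0.82 ± 0.09 and -0.68 ± 0.09). So among the receptors, Egfr did not fall in goblet cells where its partners Erbb2 and Erbb3 did. Of 5 other ErbB ligands listed, Epgn and Nrg4 were tested: 1 was higher and 1 lower in DC goblet cells, and neither passed in Si8 (medians -0.54 and 0.17).

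Ligand release is carried out by metalloproteases and rhomboids. Of 8 tested genes of this list, of 9, 4 were higher and 3 lower in DC goblet cells, and 2 were higher and 2 lower in Si8 goblet cells (medians 0.14 and 0.01). Rhbdl2, an intramembrane protease that cleaves EGF in human cells, fell in goblet cells of DC (-1.82 ± 0.15) and Si8 (-0.93 ± 0.15). The iRhom gene Rhbdf1 was lower in DC goblet cells (-0.58 ± 0.13) and higher in Si8 goblet cells (0.66 ± 0.13), and its relative Rhbdf2 was higher in DC goblet cells (0.45 ± 0.12) and lower in Si8 goblet cells (-0.72 ± 0.12). Timp3, an inhibitor of the sheddase ADAM17, was lower in DC goblet cells (-1.02 ± 0.27), and the metalloprotease Adam9 was higher in goblet cells of DC (0.35 ± 0.07) and Si8 (0.67 ± 0.07).

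Of 18 genes of EGFR feedback and turnover, 1 was higher and 9 were lower in DC goblet cells, and 5 were higher and 8 lower in Si8 goblet cells (medians -0.54 and -0.17). Errfi1, an EGFR inhibitor induced by its signal, had 267 ± 77.5 CPM in DC goblet cells, against 599 ± 104 CPM in DC other cells (-1.16 ± 0.21), and ran the other way in Si8, with 242 CPM in goblet cells, against 118 CPM in other cells (1.04 ± 0.21). The ubiquitin ligases Cbl (-1.69 ± 0.11 in DC and -0.93 ± 0.11 in Si8) and Cblc (-0.92 ± 0.08 and -0.48 ± 0.08) were lower in goblet cells of both regions. In Si8 goblet cells Spry1, a feedback inhibitor, was higher (3.03 ± 0.36), and the adaptor Gab1 (-1.29 ± 0.12) and the ERK phosphatase Dusp6 (-1.08 ± 0.15) were lower, as they were in DC goblet cells (-0.61 ± 0.12 and -0.43 ± 0.15). Of 10 transcription factors and targets of ERK, 2 were higher and 2 lower in DC goblet cells, and 5 were higher and 2 lower in Si8 goblet cells (medians -0.04 and 0.37). Etv5 had 95.2 ± 19.4 CPM in DC goblet cells, against 9.31 ± 1.09 CPM in DC other cells (3.35 ± 0.21), and was higher in Si8 goblet cells as well (1.74 ± 0.22). Myc was higher in both regions (0.82 ± 0.20 and 0.69 ± 0.19), Fosl1 was lower in DC goblet cells (-1.55 ± 0.36), and Egr1, itself an early response gene, was higher in Si8 goblet cells (1.14 ± 0.36).

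Of 10 tested partners of Kit and CD44, of 12 listed, 3 were higher and 5 lower in DC goblet cells, and 2 were higher and 6 lower in Si8 goblet cells (medians -0.39 and -0.60). Kitl, which encodes the ligand of Kit, had 79.2 ± 5.34 CPM in DC goblet cells, against 142 ± 9.90 CPM in DC other cells (-0.84 ± 0.09), so ligand and receptor ran in opposite directions between the DC sorts. Ezr, the microvillar linker ezrin, fell in goblet cells of both regions (-1.24 ± 0.17 and -1.53 ± 0.17), and Sh2b3, an adaptor that restrains Kit signals, fell in both as well (-0.56 ± 0.15 and -0.76 ± 0.14). In Si8 goblet cells Msn (-3.59 ± 0.21) and Rdx (-3.24 ± 0.19) were lower, beside the lymphocyte marker sums given above. Of 4 tested Reg genes other than Reg4, of 6 listed, none was higher and 1 was lower in DC goblet cells, and 1 was higher and 3 were lower in Si8 goblet cells (medians 0.36 and -0.91). Reg3b and Reg3g were low in DC, at 5.1e-05% and 5.6e-05% of the counts in goblet cells and 2.0e-04% and 1.3e-04% in other cells. In Si8 goblet cells they made up 0.683% and 0.565%, so their DC fold changes rest on far fewer counts. The antimicrobial lectins Reg3b, at 7454 ± 2215 CPM in Si8 goblet cells against 16807 ± 2823 CPM in Si8 other cells, and Reg3a (-1.54 ± 0.25) were lower in Si8 goblet cells, so Reg4 did not follow the Reg3 genes.

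Between the regions, the same lists gave these counts of called genes, DC over Si8, beside 62.1% of all genes called in goblet cells and 66.9% in other cells. Other ErbB ligands had 1 higher and none lower in goblet cells, and the same in other cells. ErbB receptors and co-receptors had 2 higher and 2 lower in goblet cells, and 2 higher and 1 lower in other cells. Ligand release genes had 6 higher and 1 lower in goblet cells, and 4 higher and 2 lower in other cells. Feedback and turnover genes had 7 higher and 6 lower in goblet cells, and 9 higher and 3 lower in other cells. ERK targets had 6 higher and 2 lower in goblet cells, and 7 higher and 1 lower in other cells. Niche genes had 4 higher and 4 lower in goblet cells, and 6 higher and 5 lower in other cells. Partners of Kit and CD44 had 3 higher and 1 lower in goblet cells, and 3 higher and 4 lower in other cells. All 4 tested Reg genes were lower in DC in both sorts. The goblet effect differed between the regions for 9 of 18 feedback genes, 9 of 11 niche genes, 7 of 8 release genes, 5 of 10 partners of Kit and CD44, 4 of 10 ERK targets, 2 of 5 receptors, 1 of 2 other ligands and none of the Reg genes, beside 32.1% of all genes.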

How the data were processed

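Epithelial cells of 4 groups, 4 libraries each, were profiled by stranded total RNA sequencing after ribosomal RNA removal, per the labels' protocols. Read counts per gene, raw and not normalized, were deposited by the authors in a table for each region. A further deposited table held a normalized signal, the counts divided by size factors: 100% of its 519072 values were whole and equal to the count, within 0.001, when multiplied back, so the counts were tested. Per the submitters' processing notes, FastQC 0.11.2, STAR 2.4.0f, HTSeq 0.6.1p1, DESeq2 1.14 and mm10 were used. The sources used here do not give their settings.

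Counts were fitted with edgeR 4.0.16 (R 4.3.3): TMM factors, filterByExpr (16001 genes), 1 fit over the 4 groups, robust quasi-likelihood F tests and Benjamini-Hochberg adjustment over all genes, called under 0.05. Standard errors were obtained by dividing the size of each log2 fold change by the root of its F value. 4 entries with a repeated symbol were left out. CPM uses the TMM-scaled totals, and CPM per kb divides it by the union exon length in GENCODE M21 (GRCm38, the same assembly as mm10). Shares of summed ligands are percentages computed here, and no interval is given for them beyond the SD over libraries.

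The members and lists were chosen with earlier results of these data known. Named genes were all 10 members, at most 3 called genes per list and region with the largest absolute log2 fold change (the higher group at 5 CPM or more), and the 3 genes most alike to Reg4, Kit and Egf. Sample numbers in the titles run in adjacent goblet and other pairs, which the labels do not tie to animals. Deviations from the group means (log2(CPM + 0.5), 16001 genes) correlated within these pairs at 0.366 to 0.501 in Si8 and 0.0986 to 0.409 in DC, each library's highest correlation with the other sort in 8 of 8 pairs. An edgeR fit with the pairs as a block was added after the data were seen. The other alternatives were RLE and upper-quartile factors, other filters, DESeq2 1.42.0, limma-voom (limma 3.58.1), gene sets left out, fits of fewer groups and leaving out each library. Replicates of a group differed by more than sampling noise (lowest chi-square per degree of freedom 4.56), so none was counted as deposited again.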

Additional observations from a re-analysis of the deposited data

Results flagged for a closer look

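The goblet effect differed between the regions, by the interaction test of the fit (DC minus Si8, log2), for 9 of the 10 genes, against 32.1% of all 16001 genes. The differences were 3.79 for Reg4, 2.01 for Kit, 1.50 for Egf, -0.52 for Cd44, -2.33 for Areg, -1.53 for Ereg, -1.53 for Btc, -1.49 for Hbegf and -0.81 for Egfr. Since the members were chosen with earlier results of these data known, the share beside all genes is description only.

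In 1 of the 40 groups of 4 libraries examined, a library stood apart from the other 3: Hbegf in DC other cells, where replicate 2 had 474.6 CPM and the others 688.5 to 703.6 CPM. Chance gives such a gap in about 1 in 20 groups. The same library was lowest of its group in the early response sum, and the part of those genes was not tested.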

How the results depend on the processing

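The count of called members in each of the 5 comparisons stayed within 1.5 times its value under all 95 alternatives, as did the count over all genes. With 10 members, a count of 7 or more cannot rise past that limit. The members called ranged from 7 to 9 in DC and from 6 to 9 in Si8. They ranged from 5 to 7 between the goblet groups, 6 to 8 between the other cells and 9 to 10 for the difference. Of 950 recomputed log2 fold changes of members, 906 kept their direction and their side of the threshold, 21 lost the call, 15 gained it and 8 changed sign, all 8 of genes that had not passed. These were Egfr in DC goblet against other cells with upper-quartile factors (0.0047) and without DC goblet replicate 1 (0.044; -0.12 to 0.044 over single libraries left out); Hbegf in DC against Si8 goblet cells without DC goblet replicate 1 (0.13), Si8 goblet replicate 2 (0.042) and Si8 goblet replicate 3 (0.030; range -0.27 to 0.13); Egfr in the same comparison without Si8 goblet replicate 3 (0.071; range -0.21 to 0.071); Tgfa in DC against Si8 other cells with upper-quartile factors (5.1e-04); and Reg4 there without DC other replicate 3 (0.034; range -0.51 to 0.034). The cause was not tested. The 9 differences of the goblet effect held under every alternative run. DESeq2 was run without the filter on low counts. In DC against Si8 goblet cells its median over all genes lay 0.26 above that of the main fit, over a different set of genes. Of 760 recomputed list counts, 19 moved by over 1.5 times. With adjacent sample numbers as a replicate block, added after the data were seen, 9 members were called in DC, 9 in Si8 and all 10 for the difference between the regions, and 10028, 11390 and 6921 of all genes, in that order. In DC, Cd44 (-0.19, adjusted p = 0.0252) and Tgfa (-0.23, adjusted p = 0.0135) gained the call, as did Tgfa for the difference (-0.34, adjusted p = 0.0146), and the called ERK targets and Reg genes in DC numbered 8 and 2 in place of 4 and 1. Beside these, and Areg and Hbegf in Si8, the block changed no call of a member. Counts as low as 7 per library limit Ereg in DC goblet cells, and 12 limit Egf in Si8 other cells.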
